A study of Mus musculus with 4 samples.

Results

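The genes described here encode the proteasome of 3T3-L1 cells, a mouse embryo fibroblast line with the capacity to become adipocytes, used here as preadipocytes. They were the gene symbols that begin with Psm, a letter from a to g and a digit, together with Pomp and Adrm1. Psmb8, Psmb9 and Psmb10, the catalytic subunits of the immune form, were left out by this rule. It matched 47 of 16709 gene symbols. Cells received 25 µM Nutlin-3a, dissolved in DMSO, for 24 h, or an equivalent amount of DMSO as vehicle. Nutlin-3a is a small molecule that blocks the binding of MDM2 to p53 and so spares p53 from degradation. Each group had 2 biological replicates, and RNA sequencing was reported as 1 FPKM value per transcript and group (sequenced fragments, corrected for transcript length and for sequencing depth). No value per library was given, so the values carry no replicate error, no test could be run, and higher and lower describe the ratio of the authors' group values.

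The proteasome is the main protease of the cytosol and nucleus for proteins tagged with ubiquitin. Its barrel-shaped core particle has outer rings of alpha subunits, which gate the entry, and inner rings of beta subunits, of which some carry the active sites. A regulatory particle caps the core: its base holds a ring of ATPases that unfold the substrate, and its lid removes the ubiquitin chain. Dedicated chaperones build both parts, and other activators can take the place of the cap. In mouse cells the transcription factors NRF1 and NRF2 and the factor NF-Y are known to act on proteasome genes.

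Transcripts were summed per gene symbol, and log2 ratios of Nutlin-3a over DMSO were taken after adding 1 to each FPKM, so that ratios of weakly expressed genes come out smaller than they are. Folds are plain ratios of FPKM. Genes with a mean of at least 1 FPKM and a value above 0 in both groups were compared, 10331 in all. Of the 47 proteasome genes 46 entered. Psme2b, a copy of Psme2, had 0.0480 FPKM in Nutlin-3a, was at 0 in DMSO and did not. The testis and thymus subunit genes Psma8 and Psmb11 are not analysed here. The pattern also caught Psmc3ip, whose product acts in meiotic recombination and is no proteasome subunit. It had 33.1 FPKM in Nutlin-3a against 41.0 FPKM in DMSO.

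Over all genes, FPKM came to 967341 for Nutlin-3a and 980491 for DMSO. Cdkn1a, the p53 target that encodes p21, had 386 FPKM in Nutlin-3a against 35.2 FPKM in DMSO. All 8 markers of preadipocytes and fibroblasts were present in both groups. The lowest was Pdgfra in Nutlin-3a, with 9.14 FPKM, and Pdgfrb in DMSO, with 26.1 FPKM. Their sum was 2256 FPKM in Nutlin-3a against 5006 FPKM in DMSO, while Dlk1, the preadipocyte marker, had 623 FPKM in Nutlin-3a against 513 FPKM in DMSO. Of 5 mature adipocyte markers, Fabp4 had 8.65 FPKM in Nutlin-3a against 42.0 FPKM in DMSO, and the others stayed at or below 0.840 FPKM. The listed macrophage markers summed to 7.38 FPKM in Nutlin-3a against 3.46 FPKM in DMSO, led by Cd68, with Ptprc at 0 in DMSO. The listed endothelial and epithelial markers summed to at most 1.62 FPKM in either group; Adgre1, Krt18 and Cdh5 are not analysed here. In bulk RNA, fewer cells of a type and less RNA per cell cannot be told apart. The part of the lower fibroblast markers in the proteasome values was not tested.

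Proteasome genes were abundant in both groups and lay slightly higher in Nutlin-3a as a set. The 46 genes summed to 10148 FPKM in Nutlin-3a against 8912 FPKM in DMSO, 1.14-fold higher, which was 1.05% of all FPKM in Nutlin-3a and 0.909% in DMSO. Their median was 157 FPKM in Nutlin-3a against 128 FPKM in DMSO. A log2 ratio above 0 was found for 34 of the 46 (73.9%), against 54.8% of all genes compared. The median log2 ratio was 0.22 over the proteasome genes and 0.07 over all genes compared. The quartiles of the proteasome genes were 0.00 and 0.42, a narrower range than the -0.33 and 0.44 of all genes. Without Psmc3ip, which is no subunit, the quartiles of the remaining 45 genes were 0.10 and 0.43. Their median was 0.23, and 34 of the 45 (75.6%) had a ratio above 0.

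None of the 46 proteasome genes of the set differed by 2-fold or more. Of all genes compared, 6.62% passed this limit upwards in Nutlin-3a and 6.14% downwards. At a limit of 1.5-fold, 8 of 46 proteasome genes (17.4%) were higher, which is about the 17.8% of all genes and is no result about these genes. Psme1 was the 1 gene of the 46 (2.17%) at least 1.5-fold lower, against 15.2% of all genes. These counts do not include Psmb8, Psmb10 and Psmb9, which the rule left out. They were 2.45-fold, 2.18-fold and 1.55-fold lower in Nutlin-3a. The count of 8 became 5 when ratios were centred on the median of all genes, where 14.8% of all genes were at least 1.5-fold higher. It was also 5 after a correction for GC content, where 15.2% of all genes were. The order of the genes by level was nearly kept, with a Spearman rho of 0.974 between the groups across the 46 genes and 0.918 across all genes compared. Genes are not independent replicates, and these coefficients describe the columns only.

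**Figure D1:**
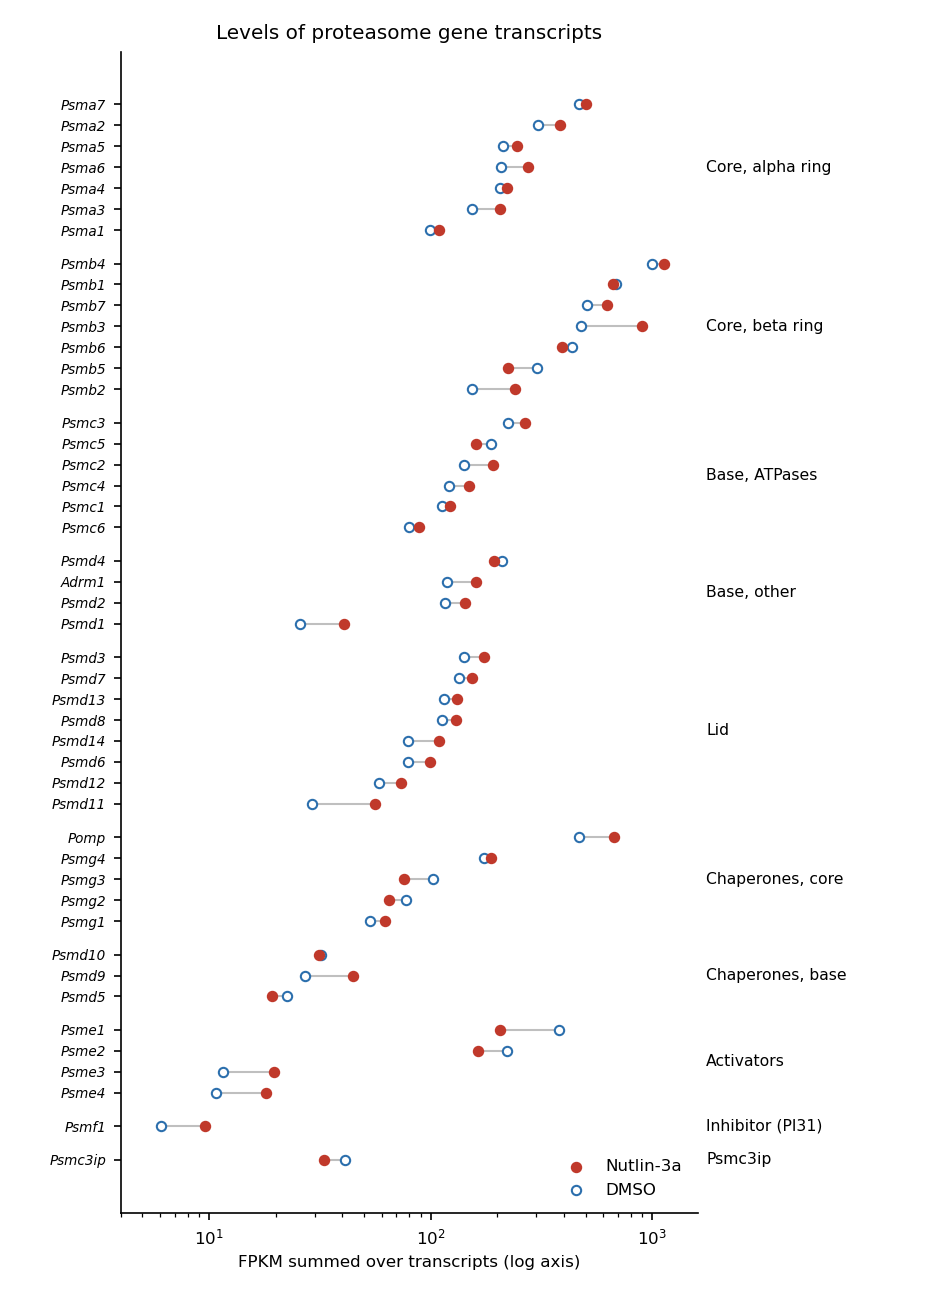
FPKM of each of the 46 proteasome genes compared, on a log axis, with filled points for Nutlin-3a and open points for DMSO, grouped by role and sorted by the DMSO level. There is 1 value per group and no error bar; Psmb4 is at the top with 1125 FPKM in Nutlin-3a against 997 FPKM in DMSO, and Psmf1 is at the bottom with 9.62 FPKM in Nutlin-3a against 6.06 FPKM in DMSO.

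The core particle genes were the most abundant class. The 14 of them summed to 6107 FPKM in Nutlin-3a against 5203 FPKM in DMSO, 1.17-fold higher, with a median log2 ratio of 0.19. All 7 alpha ring genes had a ratio above 0, in a narrow range of log2 ratios from 0.10 to 0.41, although Psma1 (-0.05) and Psma4 (-0.11) turned below 0 after a correction for GC content. Psma3, the gene of alpha7, had 205 FPKM in Nutlin-3a against 154 FPKM in DMSO, and Psma6, the gene of alpha1, whose listed model spans a neighbouring gene, had 275 FPKM in Nutlin-3a against 208 FPKM in DMSO. Psma2, the gene of alpha2, had 384 FPKM in Nutlin-3a against 306 FPKM in DMSO. Each of these 3 genes was between 1.25-fold and 1.33-fold higher. Their log2 ratios after the GC correction were 0.19 for Psma3, 0.24 for Psma6 and 0.08 for Psma2. Psma7, the most abundant alpha gene, encodes alpha4 and had 500.3 FPKM in Nutlin-3a against 466 FPKM in DMSO. Psma5, which encodes alpha5, had 245 FPKM in Nutlin-3a against 211 FPKM in DMSO, and Psma4, which encodes alpha3, had 221 FPKM in Nutlin-3a against 205 FPKM in DMSO. Psma1, the gene of alpha6 and the least abundant of the core, had 109 FPKM in Nutlin-3a against 98.8 FPKM in DMSO.

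The beta ring genes were less uniform, with log2 ratios from -0.43 to 0.91. Psmb3, the gene of the structural subunit beta3, had the highest ratio of the core, with 899 FPKM in Nutlin-3a against 479 FPKM in DMSO, 1.88-fold higher. Psmb2, which encodes beta4, was 1.57-fold higher with 241 FPKM in Nutlin-3a against 153 FPKM in DMSO. The other two structural genes lay close to even. Psmb4, which encodes beta7, had 1125 FPKM in Nutlin-3a against 997 FPKM in DMSO, and Psmb1, which encodes beta6, had 664 FPKM in Nutlin-3a against 684 FPKM in DMSO. The sign of Psmb1 (-0.04) turned to 0.02 after quantile normalization.

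The 3 genes of active subunits went different ways. Psmb7, the trypsin-like beta2, had 623 FPKM in Nutlin-3a against 507 FPKM in DMSO, a log2 ratio of 0.30. Psmb6, the caspase-like beta1, had 393 FPKM in Nutlin-3a against 435 FPKM in DMSO, a log2 ratio of -0.15. Psmb5, the chymotrypsin-like beta5 and the main target of proteasome inhibitor drugs, had 223 FPKM in Nutlin-3a against 301 FPKM in DMSO, 1.35-fold lower. Their sum was 1239 FPKM in Nutlin-3a against 1242 FPKM in DMSO, so it was almost level while its parts were not. After a correction for GC content the log2 ratios were 0.08 for Psmb7, -0.16 for Psmb6 and -0.31 for Psmb5, so Psmb7 was then close to even. Psmb3 and Psmb5 shared 55.8% and 57.1% of their runs of 50 bases with transcripts of other genes, in both cases most with a pseudogene, which makes their values uncertain.

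The regulatory particle genes mostly lay higher in Nutlin-3a. Of 18 genes, 16 had a log2 ratio above 0, with a median of 0.30 and an interquartile range of 0.20, against 0.28 over the core genes. The count was 15 after a correction for GC content, where Psmc6 lay below 0, and 16 under the other scalings. They summed to 2438 FPKM in Nutlin-3a against 2082 FPKM in DMSO, 1.17-fold higher. The median level of 137 FPKM in Nutlin-3a against 115 FPKM in DMSO was below that of the core genes, 329 FPKM in Nutlin-3a against 303 FPKM in DMSO. No test of the difference between the classes was run.

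All 8 lid genes had a ratio above 0, also under every scaling and the GC correction. Psmd11, the gene of the scaffold subunit Rpn6, had the largest log2 ratio of all proteasome genes, 0.93, with 56.4 FPKM in Nutlin-3a against 29.2 FPKM in DMSO. The top rank passed to Psmb3 after quantile normalization (0.965, against 0.960 for Psmd11) and after a correction for GC content (0.86, against 0.71 for Psmd11). In DMSO it was the least abundant lid gene, and it remained so in Nutlin-3a. Psmd14 encodes Rpn11, the metalloprotease that cuts ubiquitin chains off substrates, and had 109 FPKM in Nutlin-3a against 79.2 FPKM in DMSO, 1.37-fold higher. The lid subunit genes Psmd12 (Rpn5), Psmd6 (Rpn7) and Psmd3 (Rpn3) had log2 ratios between 0.31 and 0.32. Psmd12 had 73.4 FPKM in Nutlin-3a against 58.5 FPKM in DMSO, Psmd6 had 99.1 FPKM in Nutlin-3a against 79.2 FPKM in DMSO and Psmd3 had 175 FPKM in Nutlin-3a against 141 FPKM in DMSO. Psmd8 (Rpn12), Psmd7 (Rpn8) and Psmd13 (Rpn9) had log2 ratios from 0.20 to 0.21. Psmd7, whose product pairs with Rpn11, had 154 FPKM in Nutlin-3a against 134 FPKM in DMSO.

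Of the 6 ATPase genes 5 had a ratio above 0. Psmc2, the gene of Rpt1, had 190 FPKM in Nutlin-3a against 141 FPKM in DMSO. Its log2 ratio of 0.43 was the highest of the ring, and was 0.21 after a correction for GC content, below Psmc4 (0.31) and Psmc3 (0.29). Psmc4, the gene of Rpt3, had 149 FPKM in Nutlin-3a against 121 FPKM in DMSO. Psmc3, the gene of Rpt5 and the most abundant ATPase gene, had 266 FPKM in Nutlin-3a against 223 FPKM in DMSO. Psmc6 (Rpt4) and Psmc1 (Rpt2) differed little, with log2 ratios of 0.15 and 0.11. Psmc5, the gene of Rpt6, was the exception with 159 FPKM in Nutlin-3a against 187 FPKM in DMSO, 1.17-fold lower.

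Among the other base genes, the scaffold gene Psmd1 (Rpn2) was 1.59-fold higher, with 40.7 FPKM in Nutlin-3a against 25.6 FPKM in DMSO, and the scaffold gene Psmd2 (Rpn1) had 143 FPKM in Nutlin-3a against 116 FPKM in DMSO. The genes of the ubiquitin receptors lay on both sides of even. Adrm1, which encodes Rpn13 and shared 78.0% of its runs of 50 bases with Gm9774, had 160 FPKM in Nutlin-3a against 118 FPKM in DMSO, a log2 ratio of 0.43. Psmd4, which encodes Rpn10, had 192 FPKM in Nutlin-3a against 209 FPKM in DMSO, a log2 ratio of -0.12. Its 2 listed transcripts had 66.9 FPKM in Nutlin-3a against 88.0 FPKM in DMSO and 125 FPKM in Nutlin-3a against 121 FPKM in DMSO, so the sign of Psmd4 depended on the transcript.

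Assembly chaperones went both ways. Of 8 genes 4 had a ratio above 0, and the median log2 ratio was 0.04, which turned to -0.027 after centring on the median of all genes and to -0.060 after a correction for GC content. Pomp, which encodes the maturation factor that drives the joining of half-proteasomes, was the most abundant chaperone gene with 669 FPKM in Nutlin-3a against 467 FPKM in DMSO, 1.43-fold higher. Pomp was the largest part of the class sum of 1155 FPKM in Nutlin-3a against 956 FPKM in DMSO. The genes of the chaperone pair that starts the alpha ring lay on opposite sides. Psmg1 (PAC1) had 62.4 FPKM in Nutlin-3a against 53.0 FPKM in DMSO and Psmg2 (PAC2) had 64.8 FPKM in Nutlin-3a against 77.6 FPKM in DMSO. Psmg3 (PAC3), which works with PAC4 on the same ring, had 76.0 FPKM in Nutlin-3a against 103 FPKM in DMSO, 1.35-fold lower. It shared 22.7% of its runs of 50 bases with Gm26938, so its value is uncertain. Psmg4, the gene of PAC4, summed to 188 FPKM in Nutlin-3a against 173 FPKM in DMSO. That sum joined a transcript with 83.6 FPKM in Nutlin-3a against 107 FPKM in DMSO and another with 104 FPKM in Nutlin-3a against 66.5 FPKM in DMSO.

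The chaperones of the base had lower FPKM than each of the ATPase genes in both groups. Psmd9 (p27) was 1.64-fold higher with 44.6 FPKM in Nutlin-3a against 27.2 FPKM in DMSO. Psmd10, the gene of gankyrin, which also binds MDM2 and the retinoblastoma protein, had 31.3 FPKM in Nutlin-3a against 32.0 FPKM in DMSO and was even. Its log2 ratio of -0.03 became -0.28 after a correction for GC content. Psmd5 (S5b) had 19.3 FPKM in Nutlin-3a against 22.5 FPKM in DMSO, a log2 ratio of -0.21 that became -0.43 after that correction.

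The alternative activators split by type. The genes of the interferon-inducible activator PA28 lay lower in Nutlin-3a. Psme1 (PA28 alpha) had 205 FPKM in Nutlin-3a against 380 FPKM in DMSO, 1.86-fold lower, and Psme2 (PA28 beta) had 163 FPKM in Nutlin-3a against 221 FPKM in DMSO, 1.36-fold lower. Psme2 shared 59.3% of its runs of 50 bases with other transcripts, mainly its copy Psme2b, so its value is uncertain. Psme1 shared 14.1%, most with a pseudogene, and its listed model reached past the gene's end, so its value is uncertain too. Both listed transcripts of Psme2 lay lower, with 49.0 FPKM in Nutlin-3a against 51.9 FPKM in DMSO and 114 FPKM in Nutlin-3a against 169 FPKM in DMSO. The genes of the nuclear activators were weaker and lay higher. Psme3 (PA28 gamma) had 19.7 FPKM in Nutlin-3a against 11.6 FPKM in DMSO, 1.70-fold higher, and Psme4 (PA200) had 18.0 FPKM in Nutlin-3a against 10.7 FPKM in DMSO, 1.69-fold higher. Expressed as a share of Psme1, Psme3 came to 9.64% in Nutlin-3a and 3.05% in DMSO. Psmf1, which encodes PI31, a protein first described as a proteasome inhibitor, had 9.62 FPKM in Nutlin-3a against 6.06 FPKM in DMSO. Its transcripts diverged, with 8.30 FPKM in Nutlin-3a against 4.46 FPKM in DMSO for the main one and 1.32 FPKM in Nutlin-3a against 1.60 FPKM in DMSO for the other.

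**Figure D2:**
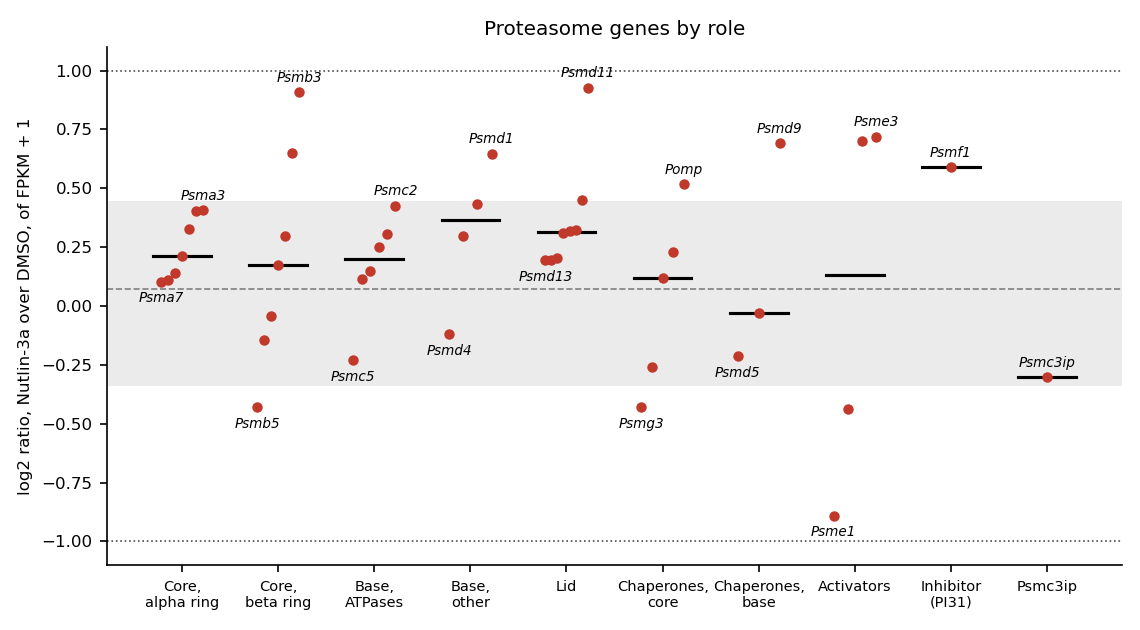
Log2 ratio of Nutlin-3a over DMSO of FPKM + 1 for the 46 proteasome genes by role, with 1 point per gene and a black bar at the median of each role. The dashed line and grey band are the median (0.07) and quartiles of all 10331 genes compared, and dotted lines mark 2-fold; no point reaches them, and Psmd11 (0.93) and Psme1 (-0.89) lie farthest out.

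Upstream sequences are shown for the core genes with the highest and lowest ratio, Psmb3 and Psmb5, and for the genes with the highest and lowest ratio of the whole set, Psmd11 and Psme1. They cover 120 bases directly before the annotated transcript start, 5′ to 3′ on the strand of the gene, from the RefSeq annotation of GRCm38.p6, the assembly that mm10 also names. Capitals mark matches on either strand to CCAAT, the box bound by NF-Y, or to TGACNNNGC, the core of the antioxidant response element bound by NRF1 and NRF2, which overlaps the AP-1 site where its free bases complete TGACTCA.
Psmb3 (chr11:97703314-97703433, plus strand): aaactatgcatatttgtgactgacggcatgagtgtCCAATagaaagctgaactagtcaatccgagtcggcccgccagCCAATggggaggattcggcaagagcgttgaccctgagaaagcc
Psmb5 (chr14:54617996-54618115, minus strand): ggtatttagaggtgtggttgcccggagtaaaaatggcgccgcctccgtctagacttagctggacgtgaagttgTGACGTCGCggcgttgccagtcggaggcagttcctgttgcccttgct
Psmd11 (chr11:80428495-80428614, plus strand): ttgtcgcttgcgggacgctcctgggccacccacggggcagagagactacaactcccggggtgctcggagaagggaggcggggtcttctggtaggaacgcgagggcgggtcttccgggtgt
Psme1 (chr14:55578374-55578493, plus strand): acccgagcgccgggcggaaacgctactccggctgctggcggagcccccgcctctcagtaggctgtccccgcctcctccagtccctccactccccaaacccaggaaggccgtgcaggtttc

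In these windows Psmb3 held 2 CCAAT boxes and Psmb5 held 1 response element core, while Psmd11 and Psme1 held neither. The windows depend on the annotation. In GENCODE, Psme1 starts further upstream, at 55578123, so its whole window lies inside the gene, and those of Psmb3 and Psmb5 do so in part. Over 250 bases upstream, the response element core was found in 6 of 43 promoters of 40 proteasome genes (14.0%), namely those of Adrm1, Psmb5, Psmb6, Psmc6, Psmd12 and Psmd9, against 10.2% of 32851 promoters in the annotation. CCAAT was found in 14 of the 43 (32.6%), against 33.8% of all promoters. Both shares were near those of all promoters, and the genes with a response element core lay on both sides of even, from Psmd9 (0.69) to Psmb5 (-0.43). Psmb1, Psmb2, Psmb7, Psmc3, Psmd3, Psmd7 and Psmg2 had no entry.

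The immune catalytic subunits, which take the places of the constitutive ones after interferon, lay lower in Nutlin-3a. Psmb8, the counterpart of Psmb5, had 42.8 FPKM in Nutlin-3a against 105 FPKM in DMSO, 2.45-fold lower. Psmb10, the counterpart of Psmb7, had 181 FPKM in Nutlin-3a against 393 FPKM in DMSO, 2.18-fold lower, and its log2 ratio of -1.12 became -0.99 after a correction for GC content. Psmb9, the counterpart of Psmb6, had 14.6 FPKM in Nutlin-3a against 22.7 FPKM in DMSO, 1.55-fold lower. Set against its constitutive counterpart, Psmb8 came to 19.2% of Psmb5 in Nutlin-3a and 34.9% in DMSO. Psmb10 came to 29.0% of Psmb7 in Nutlin-3a and 77.5% in DMSO, and Psmb9 to 3.72% of Psmb6 in Nutlin-3a and 5.21% in DMSO. Over all 3 pairs the immune genes summed to 238 FPKM in Nutlin-3a against 521 FPKM in DMSO, which was 19.2% of the constitutive catalytic genes in Nutlin-3a and 41.9% in DMSO. The genes of the immune form and of PA28 alpha and beta were thus all listed lower, while the sum of the constitutive catalytic genes was level.

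**Figure D3:**
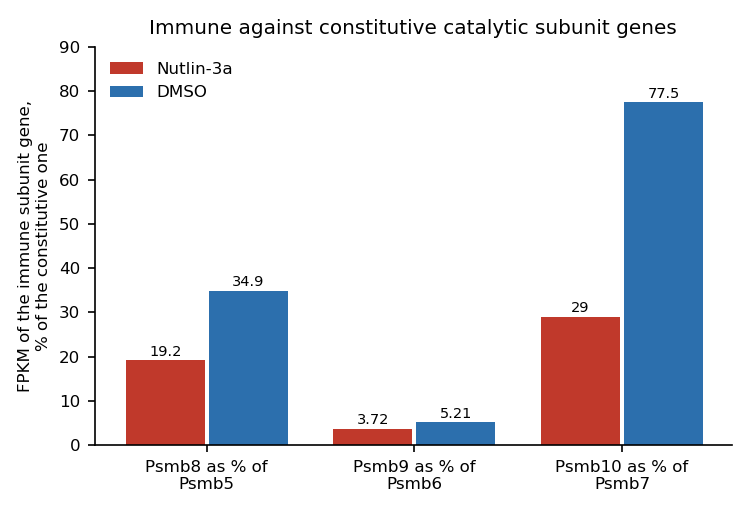
FPKM of each immune catalytic subunit gene as a percentage of its constitutive counterpart, with Nutlin-3a left of DMSO in each pair of bars. All 3 percentages were lower in Nutlin-3a, from 29.0% in Nutlin-3a against 77.5% in DMSO for Psmb10 over Psmb7 to 3.72% in Nutlin-3a against 5.21% in DMSO for Psmb9 over Psmb6.

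Other genes of the pathway were described from lists of related factors. Of the 48 that were compared, 4 (8.33%) lay at least 2-fold higher and 3 (6.25%) at least 2-fold lower, near the 6.62% and 6.14% of all genes. Their median log2 ratio was 0.19. Those higher were Zfand2a, Uba6, Mafk and Nfyb, and those lower were Psmb8, Psmb10 and Nfe2l1. With a limit of 1.5-fold, 11 (22.9%) were higher, against 17.8% of all genes, and 6 (12.5%) were lower, against 15.2% of all genes.

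Genes of factors that act on proteasome gene transcription went opposite ways. Nfe2l1, which encodes NRF1, the factor that raises proteasome genes when proteasome activity is short, had 15.3 FPKM in Nutlin-3a against 35.1 FPKM in DMSO, 2.30-fold lower. Its 2 main transcripts both lay lower, with 7.23 FPKM in Nutlin-3a against 15.7 FPKM in DMSO and 7.80 FPKM in Nutlin-3a against 19.1 FPKM in DMSO. Nfe2l2, the gene of NRF2, was 1.53-fold higher with 50.4 FPKM in Nutlin-3a against 33.0 FPKM in DMSO. The small Maf proteins pair with both factors. Mafk was 4.48-fold higher with 9.66 FPKM in Nutlin-3a against 2.16 FPKM in DMSO, Maff had 8.20 FPKM in Nutlin-3a against 4.21 FPKM in DMSO and Mafg had 11.8 FPKM in Nutlin-3a against 12.9 FPKM in DMSO. Of the NF-Y subunit genes, Nfyb was 3.42-fold higher with 17.1 FPKM in Nutlin-3a against 4.98 FPKM in DMSO. Nfyc had 16.9 FPKM in Nutlin-3a against 24.8 FPKM in DMSO and Nfya had 8.67 FPKM in Nutlin-3a against 7.23 FPKM in DMSO. Ngly1, whose product removes sugars from NRF1 and so activates it, had 5.11 FPKM in Nutlin-3a against 7.38 FPKM in DMSO. The protease gene Ddi2 (0.352 FPKM in Nutlin-3a against 0.0481 FPKM in DMSO) and Nfe2l3 (0.236 FPKM in Nutlin-3a against 0.129 FPKM in DMSO), a relative of NRF1, were under the minimum level.

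Sem1, a small lid subunit listed under its older symbol Shfm1, was not matched by the pattern and had 4244 FPKM in Nutlin-3a against 3844 FPKM in DMSO, above every proteasome gene of the set in both groups. Of 9 proteasome-associated genes, Zfand2a, which encodes a stress-induced partner of the proteasome, was 3.35-fold higher with 10.8 FPKM in Nutlin-3a against 3.21 FPKM in DMSO. Txnl1, the gene of a thioredoxin-like protein of the regulatory particle, had 45.2 FPKM in Nutlin-3a against 22.8 FPKM in DMSO, a log2 ratio of 0.96. The genes of the proteasome's deubiquitinases differed, with Usp14 at 10.5 FPKM in both groups and Uchl5 at 13.7 FPKM in Nutlin-3a against 8.97 FPKM in DMSO.

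Among genes that encode ubiquitin, Rps27a, whose ubiquitin is fused to a ribosomal protein, had 6987 FPKM in Nutlin-3a against 8432 FPKM in DMSO. Ubb, a polyubiquitin gene, had 47.4 FPKM in Nutlin-3a against 57.8 FPKM in DMSO. Of the activating enzymes, Uba1 was even (47.3 FPKM in Nutlin-3a against 44.5 FPKM in DMSO). Uba6 was 3.34-fold higher at a low level, 3.43 FPKM in Nutlin-3a against 1.03 FPKM in DMSO, and its log2 ratio of 1.13 became 0.88 after a correction for GC content.

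Among shuttle and unfolding factors, Ubqln2, whose product carries ubiquitinated proteins to the proteasome, had 24.8 FPKM in Nutlin-3a against 42.2 FPKM in DMSO, 1.70-fold lower. Vcp, the segregase that pulls proteins out of complexes, had 113 FPKM in Nutlin-3a against 76.4 FPKM in DMSO. The genes of its cofactor pair, Ufd1l (51.9 FPKM in Nutlin-3a against 33.8 FPKM in DMSO) and Nploc4 (17.1 FPKM in Nutlin-3a against 12.1 FPKM in DMSO), lay higher as well. Downstream of the proteasome, the peptidase genes Tpp2 (12.1 FPKM in Nutlin-3a against 5.93 FPKM in DMSO), Npepps (20.4 FPKM in Nutlin-3a against 10.4 FPKM in DMSO) and Lap3 (45.9 FPKM in Nutlin-3a against 28.2 FPKM in DMSO) were 1.63-fold to 2.05-fold higher, while Dpp3 had 33.0 FPKM in Nutlin-3a against 46.7 FPKM in DMSO. On the log2(FPKM + 1) scale none of the 8 peptidase genes reached 2-fold.

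**Figure D4:**
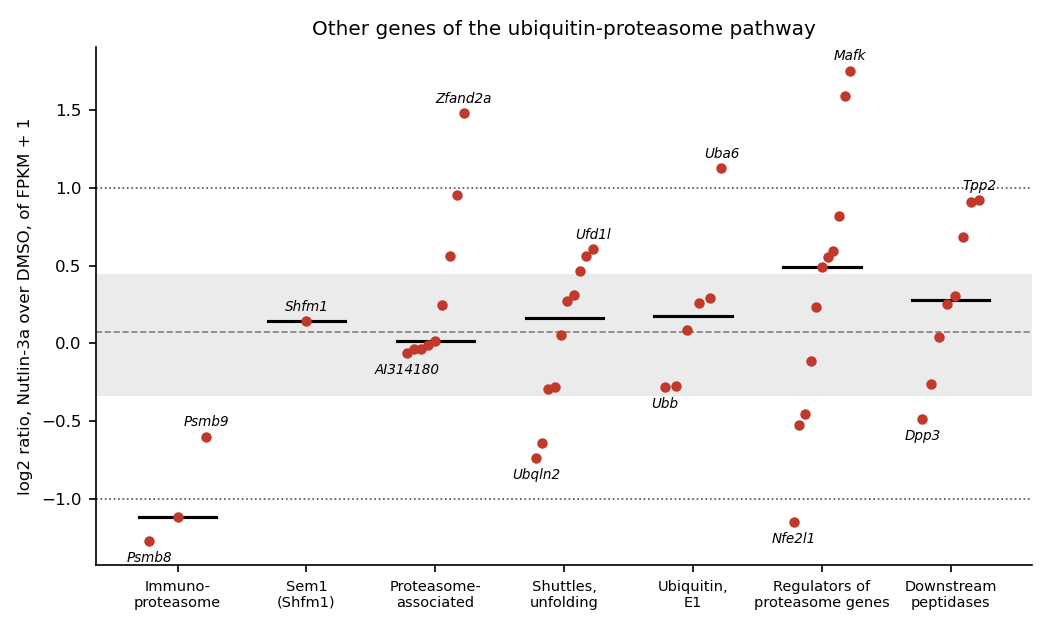
Log2 ratio of Nutlin-3a over DMSO of FPKM + 1 for 48 other genes of the ubiquitin-proteasome pathway, by list, with 1 point per gene and a black bar at each list's median. The dashed line and grey band are the median and quartiles of all genes compared, and dotted lines mark 2-fold; Mafk (1.76) and Psmb8 (-1.28) are the extremes.

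GC content moved with the ratios. Across 9935 genes with an annotated transcript the Spearman rho of log2 ratio with GC content was -0.221, and across the 46 proteasome genes it was -0.349. The rho with transcript length was 0.115 across all genes and 0.439 across the proteasome genes. The proteasome genes had a median GC content of 49.7%, against 49.9% for all genes. Psmd11 lay near the low end with 39.9% and Psme1 near the high end with 56.2%. After ratios were set against genes of like GC content, the median log2 ratio of the proteasome genes was 0.19, that of the regulatory particle 0.24 and that of the core 0.12. Psmb3 then had the highest log2 ratio of the set with 0.86, Psmd11 had 0.71, and Psme1 had -0.77.

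**Figure D5:**
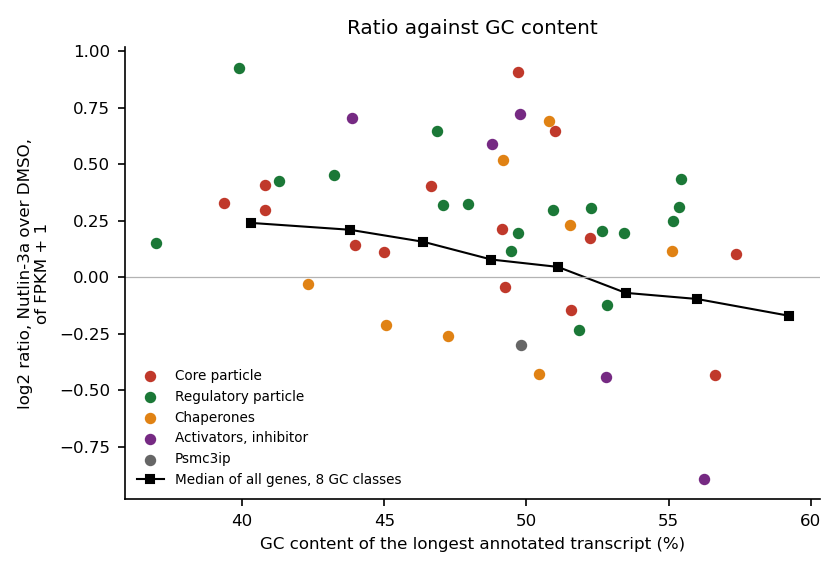
Log2 ratio of Nutlin-3a over DMSO of FPKM + 1 against the GC content of the longest annotated transcript, with 1 point per proteasome gene coloured by class. Black squares are the medians of all genes in 8 GC classes of equal size, which run from 0.24 at the lowest GC to -0.17 at the highest.

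Several proteasome genes have near-copies in the genome, and reads from them can be placed on either. Of the 46 genes, 12 shared at least 10% of their runs of 50 bases with annotated transcripts of other genes. Beside Adrm1, Psme2, Psmb5 and Psmb3, the share was highest in Psma5 (54.5%), so the value of Psma5 is uncertain too. The listed gene model reached more than 1000 bases past the annotated gene in 4 genes. That of Psma6 ran from 55280814 to 55492647 on chromosome 12 and took in 1110008L16Rik on the same strand, and that of Psme1, from 55578494 to 55585254 on chromosome 14, reached 3725 bases past the gene's end. The models of Psma3 and Psmc3ip reached 19476 and 4533 bases past the gene's end. The 32 genes free of both had a median log2 ratio of 0.24, with 25 above 0. Psmd11 (chromosome 11, 80428615 to 80472133), which shared 14.0%, and Psmb3 (chromosome 11, 97703434 to 97713500) were thus among the uncertain ones, and so was Psmb5 (chromosome 14, 54614120 to 54617995). Psme1, which shared 14.1%, was also among them. All positions are whole gene models in mm10.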

How the data were processed

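RNA of 4 libraries of 3T3-L1 cells, 2 per group, was extracted with TRIzol and sequenced by Illumina protocols, per the labels' protocols. Per the submitters' processing notes, TopHat2 2.0.11 was used with mm10. Not given in the sources used here are the quantifier, its annotation and how replicates were combined. FPKM values were deposited by the authors for 24746 transcripts, 1 per group. The header does not spell out its column prefixes: NUT was taken to mean Nutlin-3a, and DSM to mean DMSO, because no other group remained. A deposited pair of columns held log2 of the same FPKM, within 0.0071, and was not used. Another 4294 lines held only tabs.

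FPKM was summed per symbol and compared with a pseudocount of 1, a minimum mean of 1 FPKM and limits of 2-fold and 1.5-fold. Depth per library is unknown. No limma fit, leave-one-out or p-value was possible with 1 value per group. GC content, lengths, gene spans and shared runs came from GENCODE M21, matched by symbol (96.2% of genes compared). Promoters came from RefSeq, GRCm38.p6. Named genes were the members past 1.5-fold, the catalytic genes, Psmd14, Adrm1, Pomp, the extremes of each class, members under the minimum level, and pathway genes past 1.5-fold or at the ends of a list; others are named as examples. The members, lists and marker sets were chosen with earlier results of these data known. The comparison code was checked on simulated data with planted changes larger than the 2-fold limit. That check does not bear on smaller differences or on replicate error. Python 3.11.15, pandas 2.3.3 and SciPy 1.17.1 were used.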

Additional observations from a re-analysis of the deposited data

How the results depend on the processing

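Alternatives were pseudocounts of 0.1 and 0.01, no minimum mean or one of 5 FPKM, upper-quartile, median and quantile scaling, the transcript with the highest mean in place of the sum, a correction for GC content and a limit of 1.5-fold. One more, leaving out genes with shared sequence or an overreaching gene model, was chosen after seeing the data. The median log2 ratio of the proteasome genes stayed between 0.15 and 0.26. That of the core stayed between 0.12 and 0.24, and that of the regulatory particle between 0.23 and 0.34. None of the 46 proteasome genes of the set reached 2-fold under any alternative at that limit. The limit of 1.5-fold gave 8 higher and 1 lower proteasome genes, and 11 higher and 6 lower pathway genes. The chaperone median was -0.12 with the highest transcript and -0.060 after the GC correction. The median of the activators and the inhibitor, 0.59, was 0.70 with the highest transcript and 0.70 without the uncertain genes. The genes left out as uncertain included Psme1 and Psme2, which lay lower in Nutlin-3a. The log2 ratios of these 5 activator and inhibitor genes ran from -0.89 to 0.72. Their sum was 415 FPKM in Nutlin-3a against 629 FPKM in DMSO, so the median does not describe the class as higher. With no error to set them against, medians were taken as moved past a log2 difference of 0.1. Single genes were less stable than the medians. After the GC correction 18 of the 46 proteasome genes moved past that difference. Of these, 3 changed sign (Psma1, Psma4 and Psmc6). A ratio above 0 was then found for 31 of the 46 in place of 34, against 49.9% of all genes. No paired analysis was possible because the deposited table holds 1 value per group, and leaving out a replicate was not possible for the same reason. Depth per library is unknown, so differences of single genes, most of them under 1.5-fold, cannot be set against replicate or counting error.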
